A study of Mus musculus with 6 samples.

Results

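The 10 immediate early genes described here are Egr1, Egr2 and Egr3, the AP-1 genes Fos, Fosb, Fosl2, Jun and Junb, and Ier2 and Npas4. They were chosen by name, with earlier results of these data known. Every probe of the array whose gene symbol in the platform annotation is one of these names was taken. This gave 15 of 45281 probes and 10 of 19057 named genes. Expression was measured on Illumina Mouse WG-6 v2.0 BeadChips in 3 samples of MIN6 cells at passage 23 and in 3 samples of D3 cells at passage 21, with 1 array per sample. MIN6 is a mouse insulinoma line that makes insulin and serves as a model of the pancreatic β-cell, and D3 is a mouse embryonic stem (ES) cell line. MIN6 cells were grown in DMEM with fetal bovine serum and 2-mercaptoethanol. D3 cells were grown on gelatin in DMEM with a smaller share of serum, 2-mercaptoethanol and LIF, the cytokine that keeps mouse ES cells undifferentiated. The labels name no other agent and no genetic change for either line, each group is 1 line, and the effects of the line and of its medium cannot be told apart. The study's methods call the samples of each line independent but the labels only number them, so the spread between these samples may be technical. The p-values rest on that spread together with a spread estimated over all probes.

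Immediate early genes are switched on within minutes of a stimulus, without new protein synthesis, and their mRNAs are short-lived. In the textbook scheme, ERK and p38 kinases act on serum response factor (SRF) and its ternary complex partners, and calcium and cAMP act on CREB, and both sets of factors sit on the promoters of these genes beforehand. The proteins made are mostly transcription factors. EGR proteins are zinc finger factors, FOS and JUN proteins pair to form AP-1, and NPAS4 is a calcium-responsive factor of neurons that is also expressed in β-cells, where glucose raises calcium and induces several genes of this class.

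The cells matched their labels. Of 7 ES cell markers (Pou5f1, Nanog, Sox2, Zfp42, Utf1, Dppa4 and Esrrb), 0 were above background in MIN6 and 7 were above background on every D3 array, and the 7 β-cell markers (Ins2, Pdx1, Nkx6-1, Nkx2-2, Iapp, G6pc2 and Slc30a8) showed the reverse. Of 16 measured fibroblast and feeder markers, 13 were above background on no array of either line. The other 3 were the genes of fibronectin (Fn1, at least 17.0-fold lower in MIN6), smooth muscle actin (Acta2, at least 5.07-fold) and Thy1 (at least 2.22-fold), above background on no MIN6 array and on every D3 array, and the summed signal of the 16 genes was 2125 to 2195 in MIN6 and 7039 to 7218 in D3. Their part in the results below was not tested. Between 15563 and 16259 probes, or 34.4 to 35.9%, were above background per array, and log2 signals correlated at 0.993 to 0.994 within a line and at 0.836 to 0.838 between lines.

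Of the 10 genes, 7 were higher in MIN6 than in D3 cells (Egr1, Egr2, Fos, Fosb, Fosl2, Jun and Npas4), 0 were lower and 3 did not pass (Egr3, Junb and Ier2). A gene passed at a limma p under 0.05, adjusted over all probes by Benjamini-Hochberg, if its change was also at least 1.5-fold. Of all 19057 genes, 17.1% passed upward and 17.5% passed downward. The median log2 change of the 10 genes was 1.94, against -0.01 over all genes. Because the 10 genes were chosen with earlier results known, these comparisons with all genes are a description and not a test. The largest change was that of Fos, which ranked at 113 among all genes in descending order of change. All 3 MIN6 arrays lay above all 3 D3 arrays for 9 of the 10 genes, as for 26.3% of all genes, and the groups overlapped for Ier2. An array of cell extracts cannot tell a higher level in every cell from a high level in some of the cells.

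The lines differed in whether these genes were seen at all. Egr2, Fosb, Fosl2, Jun and Npas4, 5 of the 10, were above background (a detection p under 0.01) on every MIN6 array and on no D3 array, a pattern shown by 5.18% of all genes. Egr1, Fos and Junb were above background on all 6 arrays, as were 37.9% of all genes. Egr3 and Ier2 were above background on no array, as were 43% of all genes. For a gene at background in D3, the lowest signals above background on the D3 arrays stand in for its own, and its fold is given as "at least".

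**Figure D1:**
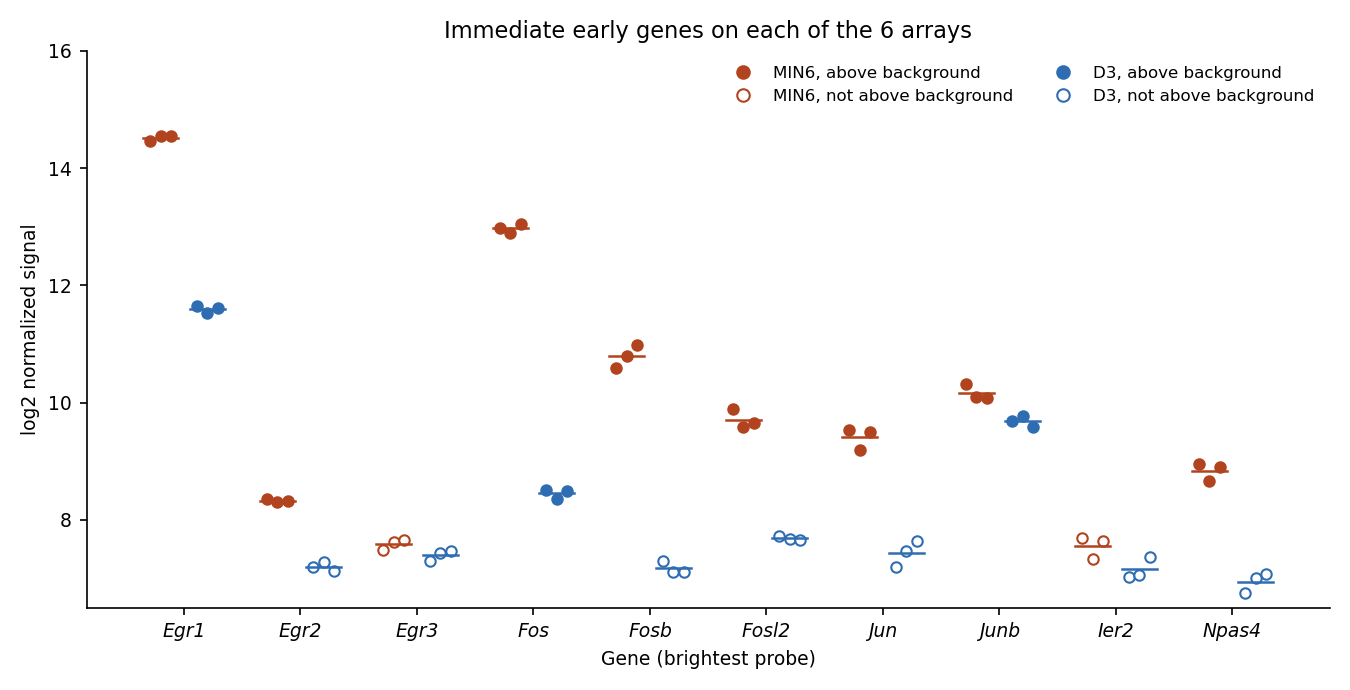
Log2 normalized signal (vertical axis) of the brightest probe of each of the 10 genes on the 3 MIN6 and 3 D3 arrays, with filled points above background, open points not, and short lines for the group means. The MIN6 points of 9 genes lie wholly above their D3 points, and the widest gap between the lines is that of Fos.

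The promoters of the genes are shown first, because the textbook inputs to this class act on short motifs in them. RefSeq promoter windows on GRCm38.p6 were matched for 7 of the 10 genes (Egr2 with 5 windows, and 1 each for Fos, Fosb, Fosl2, Jun, Junb and Npas4), and Egr1, Egr3 and Ier2 were not matched. The 250 bases before the start site are given for the genes with TGACG, which is the core of the site bound by CREB. Fos, Fosb, Npas4 and Egr2 were higher in MIN6 and Junb did not pass, and for Egr2 the first of 3 largely overlapping windows is given. Sequences run 5′ to 3′ on the strand of the gene, and capitals mark TGACG on either strand (CGTCA on the other strand) and the CArG box, which SRF binds.
Fos, chr12:85473640-85473889, plus strand: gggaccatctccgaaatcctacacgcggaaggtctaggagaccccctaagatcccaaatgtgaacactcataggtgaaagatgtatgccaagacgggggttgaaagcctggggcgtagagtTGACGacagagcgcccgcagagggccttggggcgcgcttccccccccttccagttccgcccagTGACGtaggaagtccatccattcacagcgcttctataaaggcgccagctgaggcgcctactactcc
Fosb, chr7:19310046-19310295, minus strand: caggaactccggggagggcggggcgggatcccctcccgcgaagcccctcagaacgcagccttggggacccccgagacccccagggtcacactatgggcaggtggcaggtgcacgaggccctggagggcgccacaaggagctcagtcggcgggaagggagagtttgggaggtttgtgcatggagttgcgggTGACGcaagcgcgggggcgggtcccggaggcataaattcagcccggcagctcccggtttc
Npas4, chr19:4989972-4990221, minus strand: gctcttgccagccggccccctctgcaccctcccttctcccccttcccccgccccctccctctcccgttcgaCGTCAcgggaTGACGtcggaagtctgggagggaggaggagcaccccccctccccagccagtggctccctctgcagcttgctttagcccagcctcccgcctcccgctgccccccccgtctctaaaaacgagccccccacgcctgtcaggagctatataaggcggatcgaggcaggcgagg
Egr2, chr10:67537619-67537868, plus strand: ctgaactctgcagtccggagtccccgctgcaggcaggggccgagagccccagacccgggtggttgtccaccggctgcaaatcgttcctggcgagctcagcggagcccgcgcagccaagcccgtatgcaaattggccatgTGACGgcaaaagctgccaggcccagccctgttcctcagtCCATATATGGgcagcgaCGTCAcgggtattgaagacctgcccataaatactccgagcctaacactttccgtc
Junb, chr8:84978749-84978998, minus strand: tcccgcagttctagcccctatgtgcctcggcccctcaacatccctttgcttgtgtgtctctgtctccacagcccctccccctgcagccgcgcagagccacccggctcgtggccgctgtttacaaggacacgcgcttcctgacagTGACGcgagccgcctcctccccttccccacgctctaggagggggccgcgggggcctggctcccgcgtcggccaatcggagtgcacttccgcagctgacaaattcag

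TGACG occurred in 5 of the 7 matched genes (Egr2, Fos, Fosb, Junb and Npas4) and in 19.8% of 27025 genes with a window, counted over the same 250 bases on both strands. Its first base lay at -129 and -66 from the start in Fos, at -60 in Fosb, at -106 in Junb, and at -179 and -169 in Npas4. In the printed Egr2 window it lay at -111 and -55, on either side of a CArG box at -72. The 8-base palindrome TGACGTCA, which contains TGACG, was in 0 of the 7 genes and in 1.77% of all genes. The AP-1 motif TGANTCA was in 0 of the 7 and in 7.82% of all genes. The CArG box was in 1 of the 7, Egr2, and in 1.62% of all genes. The EGR motif GCGNGGGCG was in Fosb and Fosl2, 2 of the 7, and in 5.33% of all genes. The GC box GGGCGG, which can overlap the EGR motif and did so in Fosb and Fosl2, was in 6 of the 7, all but Junb, and in 35.4% of all genes. TATAAA was in 1 of the 7, Fos, at -33, and in 14.3% of all genes. Junb had TGACG and did not pass, while Jun and Fosl2 lacked it in their windows and were higher in MIN6. A match describes the letters of a window and not a bound site. Sites outside the 250 bases, or with letters that differ from the motif, were not counted. A gene without a match may therefore still have such a site.

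Egr1 encodes the zinc finger factor that is the best known EGR protein and that is induced by glucose in β-cells. Its normalized signal was 22596, 23818 and 23977 on the MIN6 arrays, against 3196, 2959 and 3123 on the D3 arrays. Every array of both lines was above background, and the groups lay far apart with little spread inside either. The log2 change was 2.92 ± 0.09 (limma SE, n = 3 per line), or 7.59-fold (95% interval 6.62 to 8.70), with a limma adjusted p of 2.37e-16. Here and below, SEs and 95% intervals come from the limma fit, which draws each probe's variance toward a value estimated over all probes.

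Egr2, a paralog of Egr1 known from hindbrain patterning and Schwann cell myelination, had signals of 327, 318 and 319 in MIN6 and 147, 156 and 140 in D3. The 3 MIN6 arrays were nearly equal and all above background, and no D3 array was. It was at least 1.46-fold higher in MIN6, with a fitted log2 change of 1.13 ± 0.09 (SE) and a limma adjusted p of 1.84e-09. The bound is under 1.5-fold, with MIN6 signals close to the lowest ones above background.

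Egr3, another paralog, is a known target of calcineurin signalling in lymphocytes. Its brighter probe read 178.3, 197 and 202 in MIN6 and 158, 172 and 177.9 in D3. Its second probe read 145, 162 and 142 in MIN6 and 139, 119 and 125 in D3. Neither probe was above background on any array, so no fold is given, and the groups only just failed to overlap at the brighter probe. The limma adjusted p was 0.162 for the brighter and 0.080 for the second probe, and a difference was not detectable at this signal.

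Fos, the founding member of its family and the classic marker of recently stimulated cells, had the largest change of the 10. Its signal was 8069, 7610 and 8463 in MIN6, against 366, 327 and 358 in D3. All 6 arrays were above background, and the lowest MIN6 array was far above the highest D3 array. The change was 22.9-fold (95% interval 19.9 to 26.4), a log2 change of 4.52 ± 0.10 (SE, n = 3 per line), with a limma adjusted p of 3.58e-19. The window printed above holds TGACG at -66 and a TATAAA at -33.

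Fosb, a paralog whose product and its short splice form accumulate in neurons after repeated stimulation, read 1548, 1775 and 2024 in MIN6 and 158, 138 and 139 in D3. It was above background on every MIN6 array and on no D3 array. It was at least 8.06-fold higher in MIN6, with a fitted log2 change of 3.61 ± 0.11 (SE) and a limma adjusted p of 8.10e-17. The MIN6 arrays spread more for this gene than for Fos, as described below.

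Fosl2 encodes FRA-2, a FOS family protein that lacks the strong activation domain of FOS. Its brightest of 3 probes read 946, 765 and 806 in MIN6 and 212, 203 and 202 in D3. This probe was above background on every MIN6 array and on no D3 array, and it was at least 3.80-fold higher in MIN6 (fitted log2 change 2.02 ± 0.10, SE, limma adjusted p = 4.16e-13). The other 2 probes were above background on no array, with log2 changes of 0.06 and -0.05 and adjusted p-values of 0.753 and 0.815. The result for Fosl2 therefore rests on 1 probe.

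Jun, the partner with which FOS forms the classic AP-1 dimer, read 742, 588 and 721 in MIN6 and 146, 177 and 199 in D3. The groups were well apart, with every MIN6 array and no D3 array above background. It was at least 3.10-fold higher in MIN6 (fitted log2 change 1.98 ± 0.12, SE, limma adjusted p = 8.14e-12).

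Junb, a JUN paralog that often acts against JUN in proliferation, differed least among the genes above background. Its brighter probe read 1281, 1100 and 1078 in MIN6 and 826, 873 and 770 in D3. All 6 arrays were above background and the groups did not overlap. The change was 1.40-fold (95% interval 1.21 to 1.62) with a limma adjusted p of 0.000458, so that the p passed and the size did not reach 1.5-fold. With median scaling and with cyclic loess in place of quantile normalization the log2 change was 0.66 and 0.61, against 0.48, and Junb then passed. Its second probe, annotated to a different transcript record, was above background on no array (adjusted p = 0.947).

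Ier2, a small nuclear protein induced with the others in serum-treated fibroblasts, read 206, 161 and 200 in MIN6 and 130, 134 and 166 in D3. Its dimmest MIN6 array lay below its brightest D3 array, and no array was above background. The fitted log2 change was 0.40 ± 0.12 (SE) with a limma adjusted p of 0.00842, and no fold is given. With normexp background correction the log2 change was 0.82 (limma adjusted p = 0.0385) and Ier2 then passed. With the authors' processed values it was 0.22, and Ier2 did not pass.

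Npas4, the calcium-responsive factor, read 497, 407 and 477 at its brighter probe in MIN6 and 107, 129 and 134 in D3. Every MIN6 array and no D3 array was above background. It was at least 2.09-fold higher in MIN6 (fitted log2 change 1.90 ± 0.11, SE, limma adjusted p = 4.15e-12). The second probe read 245, 172 and 186 in MIN6 and 213, 195 and 167 in D3, with 1 of 6 arrays above background and overlapping groups (adjusted p = 0.784). Its printed window holds TGACG on both strands, further from the start than in Fos.

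**Figure D2:**
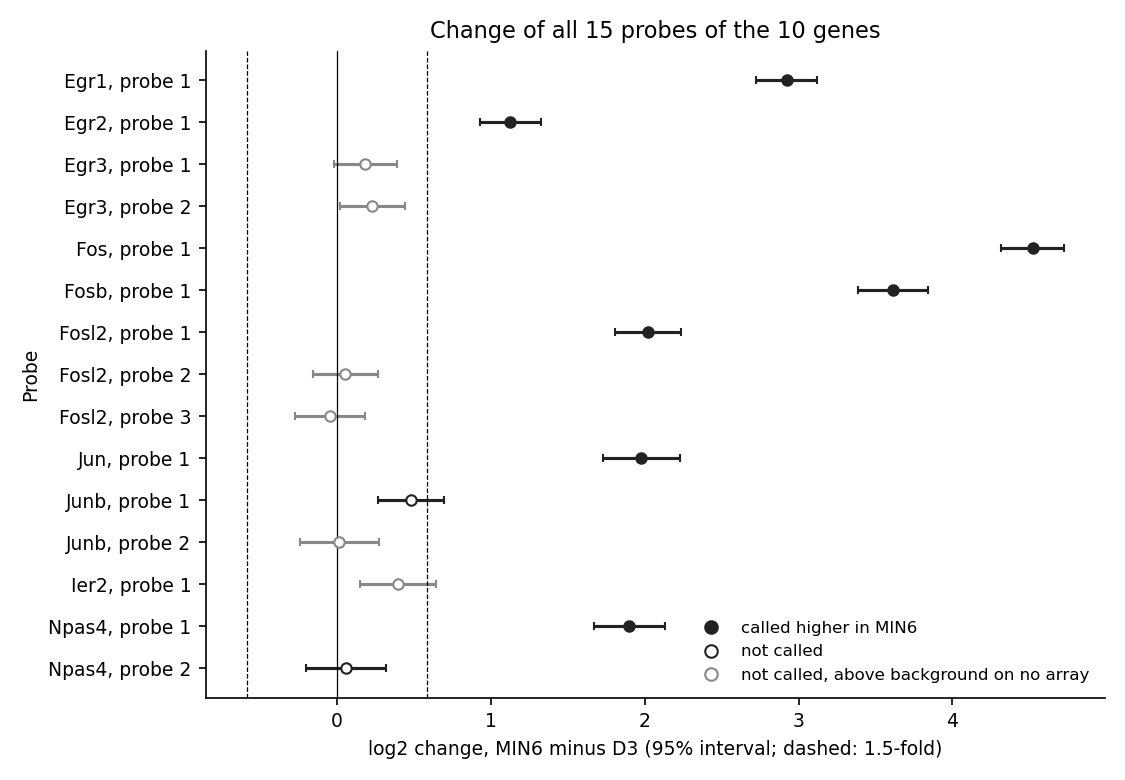
Log2 change, MIN6 minus D3 (horizontal axis), of all 15 probes with 95% intervals from the limma fit and dashed lines at 1.5-fold. The 7 probes higher in MIN6 (filled) belong to 7 genes, and the further probes of Egr3, Fosl2, Junb and Npas4 lie near 0.

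Over all 15 probes, 7 were higher in MIN6, 0 were lower, and 6 were above background on no array, while 12.5% of all probes passed upward. Of the 10 genes, 6 had 1 probe and 4 had 2 or more. In no gene with several probes did a second probe pass. The background correction, the source of the values and the choice of probe kept the 7 genes as called, and moved some of their sizes by over 1.5 times. With normexp background correction, which subtracts an estimated background before the log, the log2 change was 2.32 for Egr2, 5.40 for Fosb, 5.11 for Fos, 3.07 for Fosl2, 3.30 for Jun and 3.41 for Npas4. With the mean of all probes of a gene it was 0.68 for Fosl2 and 0.98 for Npas4. With the authors' processed values it was 0.70 for Egr2, 2.85 for Fosb, 1.55 for Fosl2, 1.43 for Jun and 1.22 for Npas4. For Egr1 it lay between 2.87 and 3.09 under the 20 alternatives run.

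**Figure D3:**
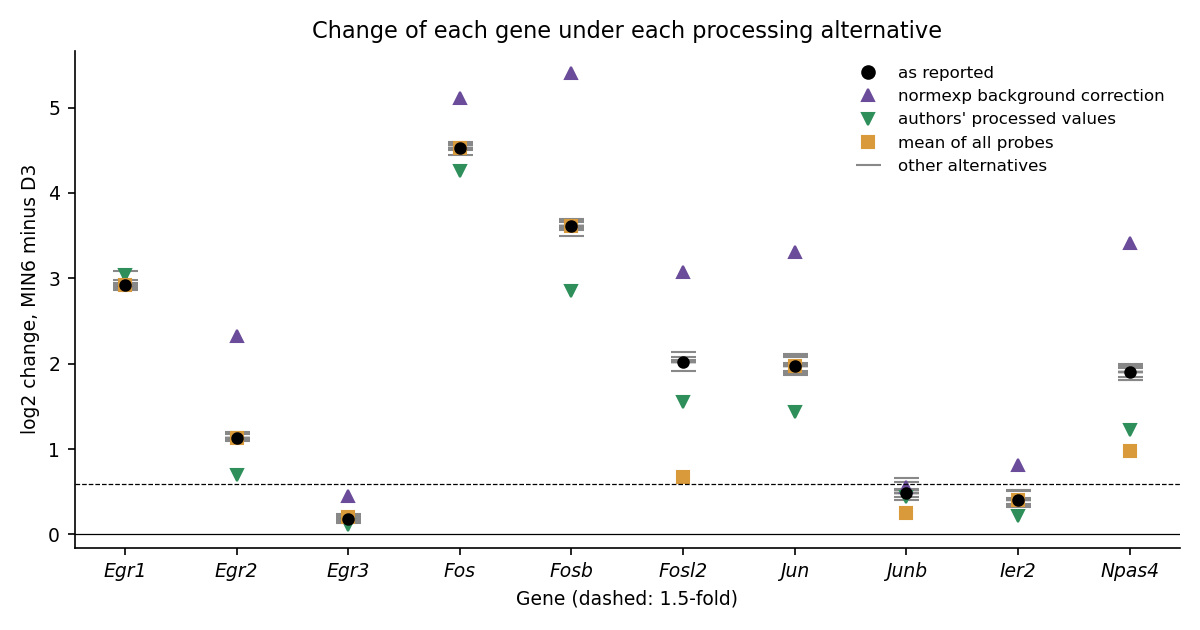
Log2 change, MIN6 minus D3 (vertical axis), of each gene as reported (black) and under each processing alternative, with a dashed line at 1.5-fold. Egr1 hardly moves, whereas Egr2, Fosb, Fosl2, Jun and Npas4, whose D3 signals were at background, are higher with normexp and lower with the authors' values.

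The genes varied between MIN6 arrays by different amounts. Among the 8 genes above background on all MIN6 arrays, the SD of the log2 signal (n = 3) was 0.0225 for Egr2, 0.0469 for Egr1, 0.0768 for Fos, 0.136 for Junb, 0.152 for Npas4, 0.160 for Fosl2, 0.183 for Jun and 0.194 for Fosb. The median over the 8604 genes above background on all MIN6 arrays was 0.111. Fosb and Jun were thus more variable than most genes, at percentiles of 85.6 and 82.9, and Egr2 had one of the smallest SDs, at 3.02. The MIN6 signals of Egr2 were close to the lowest above background, and no background was subtracted. Its SD may therefore not compare with those of brighter genes. Of the 8 genes, 5 were highest on replicate 1 (Egr2, Fosl2, Jun, Junb and Npas4), 0 on replicate 2 and 3 on replicate 3 (Egr1, Fos and Fosb), whereas 33.8, 31.6 and 34.5% of all 8604 genes were highest on those arrays. On replicates 1, 2 and 3, 2, 5 and 1 of the 8 genes were lowest, against 29.7, 33.4 and 36.9% of all 8604 genes. The median deviation of the 8 genes from the MIN6 mean was 0.0704, -0.0712 and 0.0444 on the log2 scale on replicates 1, 2 and 3. That of all 8604 genes was 0.0054, -0.0015 and -0.0043. These deviations are small beside the changes between lines, and the widest MIN6 range among the 8 genes was 0.39, that of Fosb.

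**Figure D4:**
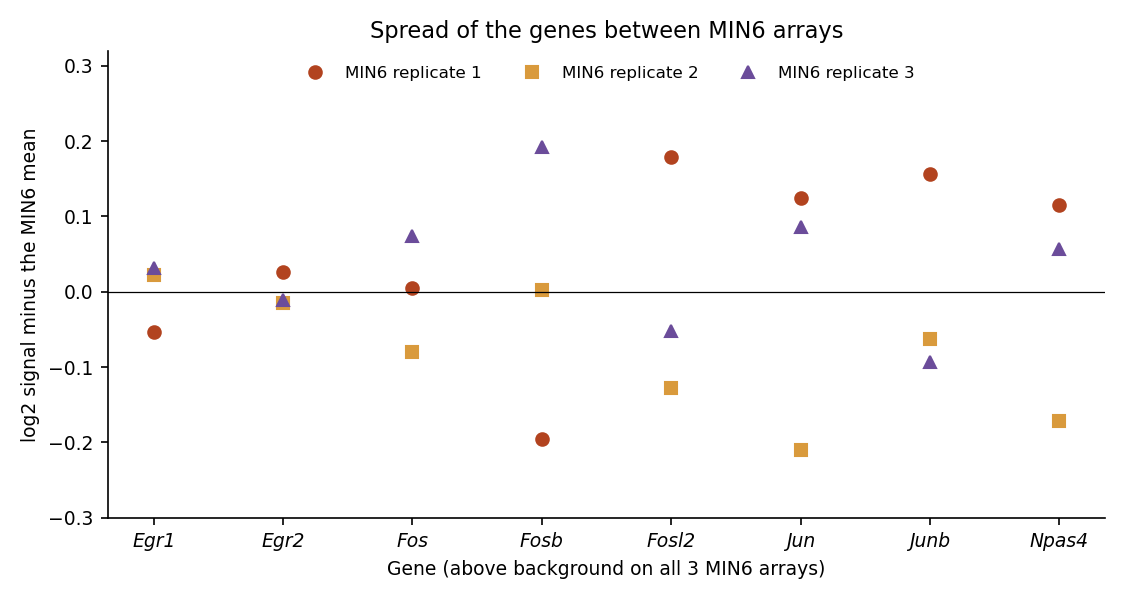
Log2 signal minus the MIN6 mean (vertical axis) of the 8 genes above background on all 3 MIN6 arrays, with a symbol for each array. Replicate 2 is highest for 0 genes, and Fosb has the widest range.

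Other genes of the same class changed in both directions. For the counts of this and the later lists, the shares over all genes were 17.1% higher and 17.5% lower. Of 22 other listed transcription factors of the immediate early class 20 were measured, of which 6 were higher, 5 were lower and 9 did not pass, with a median log2 change of -0.03 against -0.01 over all genes. The genes lower in MIN6 were Klf2 (at least 33.6-fold), Klf4 (13.0-fold), Bhlhe40 (4.98-fold), Csrnp1 (2.43-fold) and Id1 (1.73-fold). Klf2 and Klf4 are also part of the pluripotency network of mouse ES cells. Id2, an inhibitor of basic helix-loop-helix factors, was 4.42-fold higher in MIN6. Egr4, the fourth EGR paralog, was 2.79-fold higher in MIN6, with signals of 604, 642 and 596 in MIN6 against 227, 229 and 206 in D3 and no overlap, although only 2 of the 3 D3 arrays were above background. Nr4a1, an orphan nuclear receptor induced alongside Fos in many cells, was above background on no array. The list held Crem, at least 2.19-fold higher, with 2 other probes that were above background not passing, and Klf6, counted as not passing, had another probe that was lower (log2 change -0.59).

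Of 28 immediate early genes that do not encode transcription factors, 7 were higher, 10 were lower and 11 did not pass, and the median log2 change was -0.07. Sgk1, a kinase induced by serum and glucocorticoids, was 30.2-fold lower, and Ccn2, a secreted matrix protein, was at least 6.86-fold lower. Gadd45g, a stress-response gene, was 9.01-fold higher, and Amigo3 was at least 3.15-fold higher. Arc, a synaptic gene often measured together with Fos, Egr1 and Npas4 in neurons, had a 1.39-fold lower signal in MIN6 and did not pass.

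**Figure D5:**
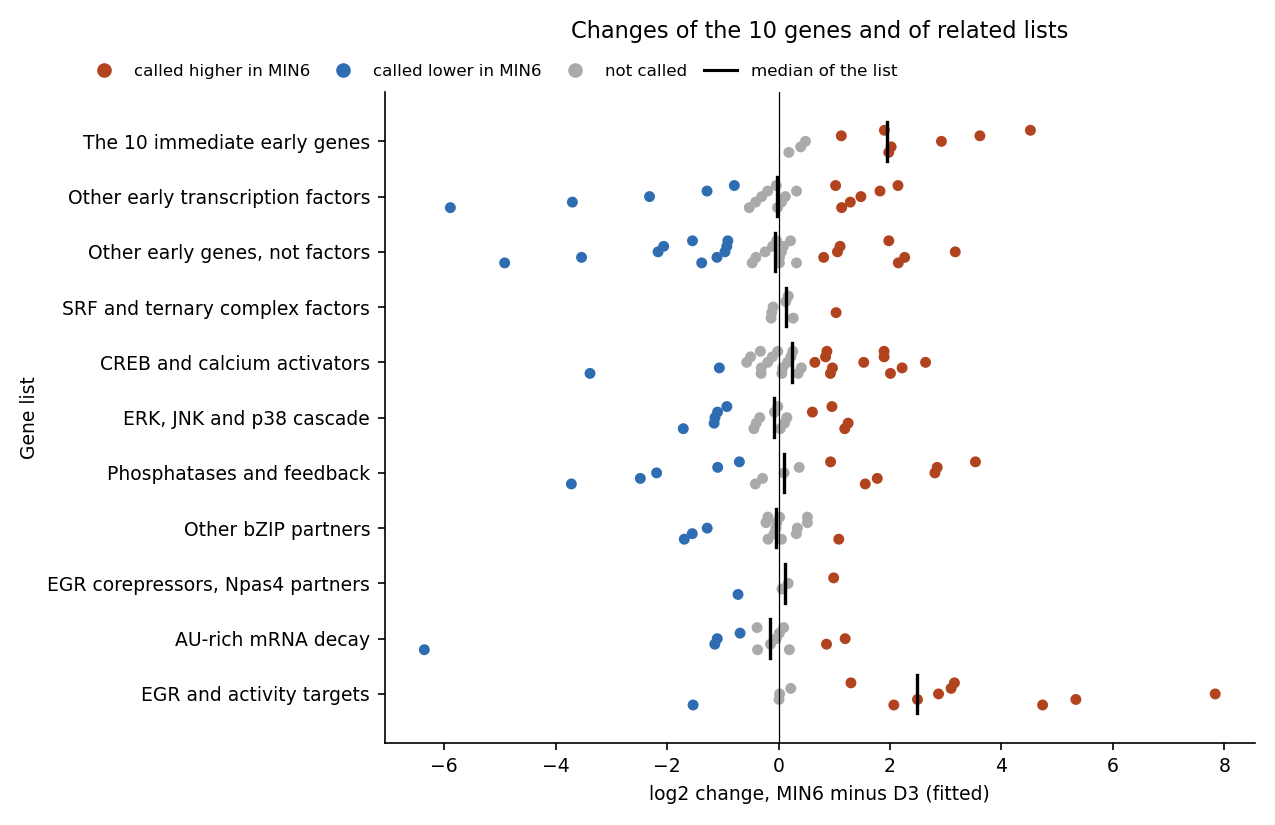
Log2 change, MIN6 minus D3 (horizontal axis), of every measured gene in the 10 genes and in related lists (rows), with a bar at the median of each list. The 10 genes and the EGR and activity targets have medians of 1.94 and 2.49, and the medians of the other lists lie between -0.15 and 0.24.

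Of the factors that act on these promoters, SRF itself had a 1.09-fold higher signal and did not pass (adjusted p = 0.390), and of the 7 genes for SRF, ternary complex factors and SRF coactivators only Elk4 was higher, by 2.05-fold at the brightest of its 6 probes. With the mean of all probes of a gene, 0 of the 7 passed. Elk1, Elk3, Mrtfa, Mrtfb and Myocd were above background on no array. The 28 measured genes of 30 listed for CREB, its coactivators and calcium-dependent activators had 11 higher, 2 lower and 15 not passing, with a median log2 change of 0.24. Camk4, a calcium-dependent kinase that phosphorylates CREB, was at least 3.27-fold higher, with 735, 678 and 741 in MIN6 against 115, 107 and 124 in D3. Creb3, a membrane-bound relative of CREB, was 4.65-fold higher at its brightest probe while its other probe did not pass, and Camk2d, another calcium-dependent kinase, was at least 2.62-fold higher. Nfatc4, a factor that calcineurin activates, was at least 5.79-fold lower, and Mef2b was 2.09-fold lower. Creb1 had a log2 change of 0.22 and did not pass (limma adjusted p = 0.223), with only 1 array of each line above background. Of the genes counted as not passing, 3 other probes of Nfatc3 were lower (log2 changes -0.68, -0.64 and -0.78), and another probe of Prkaca (0.65) and of Nfatc1 (0.64) was higher.

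Of 26 listed genes of the ERK, JNK and p38 cascade 17 were measured, and the other 9 are not analysed here. There were 4 higher, Mapk10 (at least 1.35-fold), Araf (2.28-fold), Rps6ka5 (1.94-fold) and Map2k2 (1.52-fold). There were 5 lower, Mapk13 (at least 2.82-fold), Mapk8 (2.23-fold), Map2k1 (2.21-fold), Nras (2.14-fold) and Map2k3 (1.90-fold), and the median log2 change was -0.07. The probes of a gene did not always give the same call. Another probe of Mapk8 and another of Nras, both above background, did not pass. Of the genes counted as not passing, 2 other probes of Map2k6 (log2 changes -0.81 and -0.83) and 1 of Mapk9 (-0.64) were lower in MIN6. With the probe of largest change 11 of the 17 genes passed, and with the mean of all probes 6 passed, in place of 9.

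The inhibitors of that cascade, many of which are themselves induced by it, changed in both directions. Of 15 measured phosphatases and feedback inhibitors of 16 listed, 6 were higher, 5 were lower and 4 did not pass, with a median log2 change of 0.10. Dusp4 was 11.6-fold higher, with signals of 5011, 5622 and 6474 in MIN6 against 535, 438 and 501 in D3. Dusp5 was 7.0-fold higher. Dusp8 was 7.20-fold higher by its measured signals, of which only 1 of the 3 in D3 was above background. All 3 encode phosphatases that remove the activating phosphates of MAP kinases, Dusp4 and Dusp5 in the nucleus. Spred1, an inhibitor of RAS signalling, was 13.2-fold lower by its measured signals, of which only 1 of the 3 in MIN6 was above background, and Spry4 (5.58-fold), Dusp16 (4.56-fold), Dusp6 (2.13-fold) and Spred2 (at least 1.16-fold) were also lower. Dusp1, the phosphatase most often counted as immediate early, had a 1.29-fold higher signal and did not pass. Dusp2, Dusp9 and Spry2 did not pass either, and they were above background on no array.

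Partners of the 10 proteins were measured as well. Among 16 of 17 listed bZIP proteins that can pair with AP-1 members, Atf5 was 2.12-fold higher, Nfe2l2 (3.23-fold), Jdp2 (at least 2.25-fold) and Cebpd (2.43-fold) were lower, and 12 did not pass, with a median log2 change of -0.04. Jdp2 encodes a repressor that pairs with JUN. For Atf4, which did not pass at its brightest probe, another probe had a log2 change of 2.31. Of 4 EGR corepressors and NPAS4 partners, Nab1, which binds and represses EGR proteins, was 1.99-fold higher and Arnt was 1.65-fold lower, each at its brightest probe, while 1 other probe of Nab1 and 3 of Arnt that were above background did not pass. With the mean of all probes of a gene, 0 of the 4 passed. Nab2 and Arnt2, the main partner of NPAS4 in neurons, did not pass, and Arnt2 was above background on no array.

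Of 13 factors that act on AU-rich elements, which mark many immediate early mRNAs for decay, 2 were higher, 4 were lower and 7 did not pass, with a median log2 change of -0.15. Zfp36l1, an mRNA-destabilizing protein, was at least 52.8-fold lower, with 125, 151 and 140 in MIN6 against 10866, 12188 and 10958 in D3, so that no MIN6 array was above background. Its relative Zfp36 was 1.82-fold higher, and Btg1 was 2.29-fold higher. Cnot1, a subunit of the deadenylase complex, was 2.21-fold lower with 1 other probe above background not passing, Elavl1, a stabilizing protein, was 2.14-fold lower, and Hnrnpd was 1.61-fold lower. Taking the probe with the largest change for each gene gives 10 genes that passed in place of 6, since the probes of Tia1, Tial1, Hnrnpdl and Parn differ.

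Genes described as targets of EGR proteins or of neuronal activity were the list with the highest median apart from the cell type markers. Of 13 measured of 14 listed, 9 were higher, 1 was lower and 3 did not pass, and the median log2 change was 2.49. Of all genes, 17.1% were higher and 17.5% lower. The list was chosen with earlier results of these data known, so its count and median are a description and not a test. Scg2, a secretory granule protein, was at least 126-fold higher, Syt4, a synaptotagmin of granules, was 40.4-fold higher with 2 of 3 D3 arrays above background, Vgf, a secreted neuropeptide precursor, was at least 21.9-fold higher, and Syn2, a synapsin, was at least 4.88-fold higher. Vgf read 4675, 4843 and 4919 in MIN6 against 173, 157 and 215 in D3. Several of these genes are also general genes of neuroendocrine granules, which MIN6 cells carry. Pdgfa was 2.89-fold lower, and Cdkn1a, Tnfaip3 and Tgfb1 did not pass, with Tnfaip3 above background on no array.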

How the data were processed

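RNA was labelled as biotinylated cRNA and hybridised to 1-colour arrays. The authors deposited non-normalized intensities on a linear scale, and a detection score per probe and array. The header calls this score a p-value, but it rises with signal and was read as 1 minus p. The authors also deposited log2-like values, quantile-normalized in the lumi package according to the methods, with an unstated transformation, and these were an alternative here.

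Intensities were quantile-normalized without background subtraction, taken to log2 and fitted per probe with limma 3.58.1 (lmFit and eBayes, R 4.3.3) as MIN6 minus D3 with no block. P-values were adjusted over 45281 probes (Benjamini-Hochberg). Genes were called at an adjusted p under 0.05 if the change reached 1.5-fold, and dim probes were kept. Above background means a detection p under 0.01, and the lowest normalized signals that met it were 211 to 225 per array. Each gene is represented by its brightest probe. Gene symbols were single for 34885 probes, several for 18 and missing for 10378, and 78 Entrez IDs were not in the RefSeq table. The lower bounds set the mean of the line above background against the higher, per array, of that lowest signal and the probe's own. The small number of arrays limits the precision. The fit was tested on simulated data. Figures were drawn with Python 3.11.15 and matplotlib 3.10.9.

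The members and the lists were chosen with earlier results of these data known. From each list the 4 genes with the largest change that passed are named, every gene of a short list, and counts of 5 or fewer. Genes named beyond that rule (Egr4, Nr4a1, Crem, Arc, Creb1, Dusp1 and Atf4, and probes that disagree) were chosen after their values were seen. Alternatives covered background correction, scaling, filters, the variance prior, the replicate block, single arrays left out, the methods' t-test, fold thresholds, the authors' values and the choice of probe.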

Additional observations from a re-analysis of the deposited data

How the results depend on the processing

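The number of the 10 genes higher in MIN6 was 7 as reported, 8 with normexp (Ier2 added), with median scaling and with cyclic loess (Junb added in each), 9 with no fold threshold, and 7 under every other alternative run. It was 7 under each single array left out, and 0 genes were lower under any alternative. No change reversed its direction. Of all genes, 2162 were higher and 2069 lower when at least 2-fold was required, against 3251 and 3329. Genes called in the 10 lists of related genes (other immediate early genes, upstream factors, feedback, partners, decay factors and targets) numbered 84. They numbered 84 to 87 when single arrays were left out, and 94 with normexp. The choice of probe gave 73 (mean of all probes) and 95 (largest change). The fold threshold moved the count most, to 65 with at least 2-fold and 110 with none. Nothing in the labels says that samples with the same replicate number were handled together. Their deviations correlated at 0.00993, -0.0028 and -0.0226, which cannot settle whether they were. A replicate block leaves every fitted change as it was, since both lines have the same replicate numbers, and it can alter only the p-values. With the block 7 of the 10 genes were higher, and of all genes 3251 were higher and 3329 were lower. These counts cannot settle the question either. The files name no slide, so a slide block was not run. D3 signals at background leave only a lower bound for Egr2, Fosb, Fosl2, Jun and Npas4. No fold is given for Egr3, Ier2 and the probes above background on no array.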

Other observations

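Heat shock genes, a second group that cells induce within minutes, were measured as 10 of 11 listed. Hspa1a, an inducible chaperone, was at least 1.32-fold higher in MIN6, Hspb1, a small heat shock protein, was 42.7-fold lower with 2 of 3 MIN6 arrays above background and Hsp90aa1 was 2.02-fold lower, while 7 genes did not pass, and the median log2 change was 0.08. With normexp background correction 5 of the 10 passed. Of 7 measured markers of other islet cells, the hormone genes Gcg (at least 27.4-fold), Ppy (at least 7.73-fold) and Sst (at least 4.35-fold) were higher in MIN6, Pyy was higher with 1 MIN6 array above background, Hhex was 4.31-fold lower with 2 of 3 MIN6 arrays above background, and Ghrl and Irx2 did not pass.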
